A study of Mus musculus with 31 samples.

Results

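The spread between mice within a group was compared across the 3 groups of a study of diabetic mice, instead of the group means. The data are hippocampal RNA sequencing values of 31 mice, with 1 library per mouse. The members were the 17139 of 27094 loci in the deposited table with a value above 1 in at least 10 mice. Values are FPKM, which are fragments scaled to transcript length and library size, and spread is the standard deviation (SD) of log2(FPKM + 1) over the mice of 1 group.

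The groups held 10 mice each for db/db and db/db-IF and 11 for db/m, all C57BLKS/J and labelled 3 months old. These numbers follow the sample labels. For its sequencing the paper gives other numbers of db/db and db/db-IF mice, and the difference was not resolved here. The db allele is a mutation of the leptin receptor gene Lepr that is carried in the germ line. The db/db mice carry it on both chromosomes, overeat and become obese and diabetic. The db/m mice are heterozygous and served as controls with free access to food, so every group carries the mutation at least once. The db/db-IF mice are db/db mice on intermittent fasting (IF), in which food was withdrawn every other day, and are called IF mice here. Mice are named by their label numbers, which run from 1 to 11 for db/m, from 1 to 10 for db/db and from 1 to 11 without 3 for IF mice. The libraries listed between 16242 and 17172 loci above an FPKM of 1 per mouse. The table gives no read counts, so precision rests on the number of mice, with the depth of each value unknown. Of 14 marker genes of hippocampal subfields, 13 passed the filter.

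The hippocampus is dissected by hand from between the cortex, the thalamus, the striatum and the fluid-filled ventricle, and it contains neurons, glia and vessels. The choroid plexus of the ventricle, the meninges and the white matter are richly marked by their own genes, such as Ttr, collagens and myelin genes. Immediate early genes such as Fos respond within minutes to the activity of neurons, interferon response genes respond to cytokines, and heat shock, clock and glucocorticoid target genes respond to stress, time of day and hormones. Spread within a group holds differences between animals, dissections, RNA samples and libraries, and with 1 library per mouse these cannot be told apart. In bulk tissue, fewer cells of a type and less RNA per cell cannot be told apart either.

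The IF mice differed more among themselves than the mice of the other groups. The median SD over the 17139 loci was 0.138 for db/m, 0.152 for db/db and 0.203 for IF mice. The SD was highest in IF mice at 11200 loci (65.3%), in db/db mice at 3303 (19.3%) and in db/m mice at 2636 (15.4%). It was higher in IF than in db/db mice at 74.7% of loci and higher in db/db mice than in db/m at 60.6%. The order of the 3 groups was the same at every level of expression, from loci with a mean FPKM under 2 (median SD 0.149, 0.163 and 0.198) to loci over 100 (0.108, 0.12 and 0.175). Loci are not independent of each other, so these values describe the table and were not tested.

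**Figure D1:**
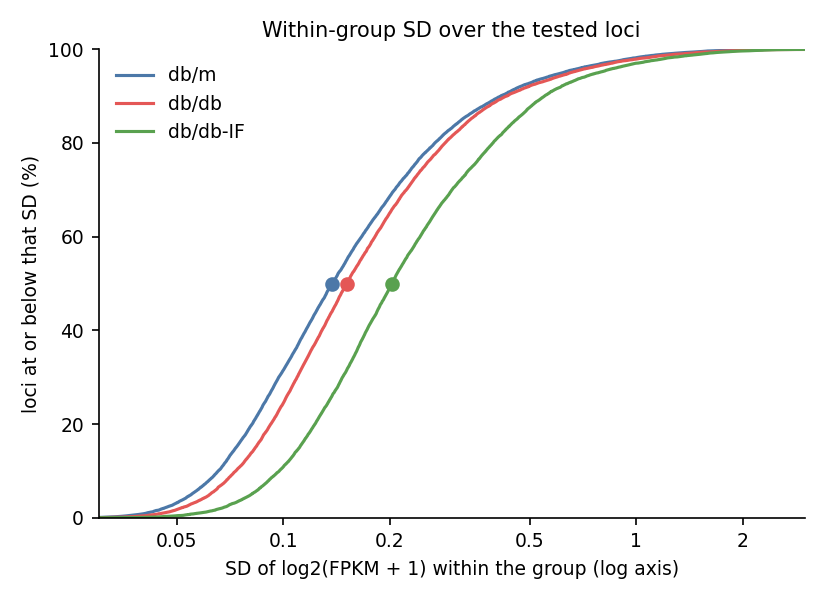
Cumulative share of the 17139 loci (vertical axis, percent) at or below a given within-group SD of log2(FPKM + 1) (horizontal log axis), 1 line per group, with a point at the median. The IF line lies to the right of the others, with its median at 0.203 against 0.152 in db/db and 0.138 in db/m mice.

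To test the spread over mice, the distance of each mouse was taken as its median absolute deviation, over the loci, from the mean of the other mice of its group. Each mouse thus enters the reference mean of the others, so the distances within a group are not independent. In db/m mice the distance ran from 0.0724 to 0.12, with a median of 0.0931. In db/db mice it ran from 0.0901 to 0.16, with a median of 0.106. In IF mice it ran from 0.103 to 0.24, with a median of 0.127. The ranges overlapped, and 4 of 10 IF mice lay farther out than every db/db mouse and 7 of 10 farther than every db/m mouse. The mean distance of IF mice was 0.144 ± 0.0419 (SD, n = 10) against 0.11 ± 0.0188 (n = 10) in db/db mice, a difference of 0.0337 (permutation test, two-sided, p = 0.0218, adjusted p = 0.0327 over 3 comparisons). Against 0.0962 ± 0.0162 (n = 11) in db/m mice the difference was 0.0475 (permutation adjusted p = 0.00105). The db/db and db/m mice differed by 0.0138, which did not pass the threshold (permutation adjusted p = 0.0806).

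The call of the difference of IF from db/db mice depended on single mice. The farthest IF mice were 7 at 0.24, 11 at 0.17, 1 at 0.167 and 8 at 0.162, and the farthest db/db mouse was 10 at 0.16. Without IF mouse 7 the difference from db/db mice was 0.0171 (permutation adjusted p = 0.134), and without mouse 11 it was 0.0287 (permutation adjusted p = 0.0806). The adjusted p also rose above the threshold, to between 0.0506 and 0.0571, without db/db mouse 1, 4, 5 or 7 or IF mouse 1. The difference of db/db from db/m mice passed the threshold without db/m mouse 1, 10 or 11 (0.0167, 0.0157 and 0.0163, permutation adjusted p = 0.0369, 0.0485 and 0.043). The study reports a read quality for each library. In each group the libraries were divided here into 2 sets, at the replicate number that best split this quality. No label names these sets, and such a cut gives 2 sets in any data. With these 2 read-quality sets centred separately, IF mice differed from db/db mice by 0.0333 and from db/m mice by 0.0463, and db/db from db/m mice by 0.013 (permutation adjusted p = 0.0337, 0.00219 and 0.12). With IF mice 1, 7 and 11 left out together, an alternative chosen after seeing the data, the difference from db/db mice was -0.00118 (permutation adjusted p = 0.912) and the median SD of IF mice was 0.147. These were the farthest 3 IF mice, so a smaller distance follows from the choice. With the 3 farthest mice of each group left out the difference was 0.00679 (permutation adjusted p = 0.236).

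**Figure D2:**
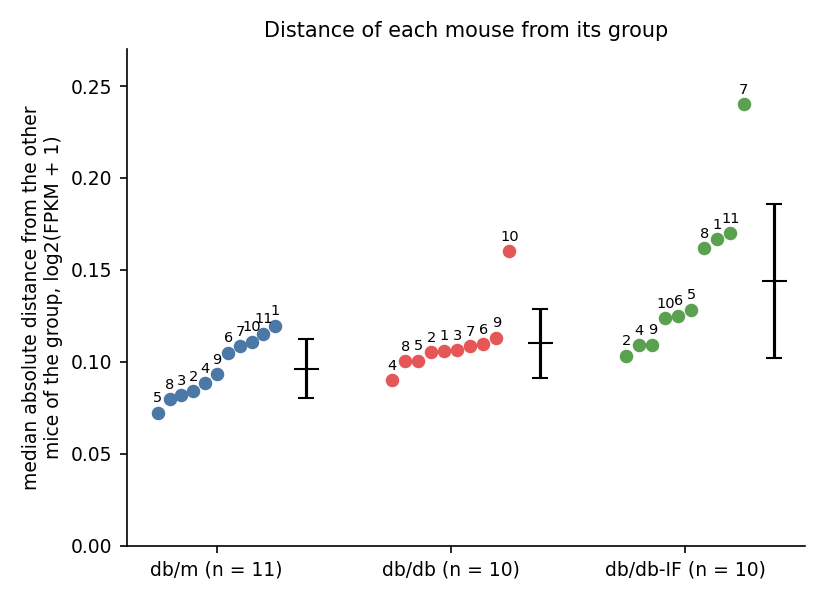
Distance of each mouse from the other mice of its group (vertical axis, log2(FPKM + 1), median over 17139 loci), 1 point per mouse with its label number. Horizontal bars with error bars are the mean ± SD of the group. Mouse 7 of IF lies at 0.24 and mouse 10 of db/db at 0.16, apart from the rest of their groups.

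Whether single genes varied more in 1 group than in another was tested with limma on the absolute deviations of each mouse from its group mean, with Benjamini-Hochberg adjustment over the 17139 loci. The spread was wider in IF than in db/db mice at 389 loci (2.27%) and narrower at 83 (0.484%). The 472 loci of both directions were 2.75% of those tested. At an unadjusted p under 0.05 there were 2920 wider and 466 narrower loci. A joint test of the 3 groups (moderated F) called 1054 loci (6.15%). At the 389 loci the IF mouse farthest from the group median lay below it at 295 (75.8%), against 60.8% of all loci tested. That mouse was mouse 7 at 90 of these loci (23.1%, against 33.4% of all loci) and mouse 11 at 74 (19%, against 13.8% of all loci). In the median locus 6 of 10 IF mice lay outside the range of the db/db mice, against 4 over all loci. The 389 loci were chosen for a wider IF spread, so these shares are a description.

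The genes with the widest IF spread relative to db/db mice had a tight range in db/db mice and a low subset of IF mice. Clstn1 (chr4:149585111-149648899) encodes calsyntenin 1, which links vesicles to kinesin motors in neurons. Its FPKM ran from 561 to 674 with a median of 587 in db/m, from 570 to 654 with a median of 599 in db/db, and from 63.8 to 623 with a median of 528 in IF mice. Mice 5, 10 and 11 of IF were low, at 120, 156 and 63.8, and the other 7 lay at or above 451. The SD was 1.18 in IF against 0.0684 in db/db mice (adjusted p = 0.000102). The position above is that of the reference gene of this name and was not read from the locus. Clstn1 has a further locus, which was spread in every group. That locus ran from 259 to 651 in db/m, from 235 to 640 in db/db and from 130 to 638 in IF mice. Its correlation with the first locus was -0.042. Summed over both loci the value of Clstn1 ran from 842 to 1299 in db/m and from 824 to 1294 in db/db mice. In IF mice the sum ran from 546 to 1205, lowest again in mouse 11. The SD of the sum was 0.2 for db/m, 0.241 for db/db and 0.462 for IF mice. The tight range in db/db mice was thus that of 1 locus, and the sum was not tested.

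Myo5a (chr9:75069799-75223688), the myosin motor that carries organelles along actin, ran from 495 to 574 for db/m, from 482 to 587 for db/db and from 88 to 500 for IF mice, with medians of 526, 553 and 397. Mice 1, 2, 7 and 11 of IF were low, none above 121, and lay below every mouse of the other groups. Its SD was 1.07 in IF against 0.102 in db/db mice (adjusted p = 9.73e-11). Ncbp3, which binds the cap of nuclear RNA, was a low gene that ran from 1.22 to 1.44 in db/db mice and from 0 to 1.51 in IF mice, with medians of 1.28 and 1.23. Mice 2, 5, 7 and 11 of IF were at or under 0.074, and the other 6 overlapped the other groups (SD 0.607 against 0.0506, adjusted p = 6.23e-12).

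Pmepa1, a membrane protein that dampens TGF-beta signalling, ran from 84.6 to 95.9 in db/db and from 27.7 to 99.3 in IF mice, with mice 1, 6 and 7 low (SD 0.723 against 0.0574, adjusted p = 0.000217). Tmem135, a membrane protein of mitochondria and peroxisomes, ran from 20.3 to 23.7 in db/db and from 1.7 to 20.8 in IF mice, with mice 1 and 2 low (adjusted p = 0.0148). Cacna1i, a pore subunit of T-type calcium channels, ran from 13.3 to 16 in db/db and from 2.97 to 15.1 in IF mice (adjusted p = 0.000691). Mice 4, 6, 10 and 11 of IF were low for Cacna1i, and so were mice 1 and 10 of db/m, which reached down to 4.43. The low mice thus differed from gene to gene.

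Other genes were spread in the freely fed groups and tight in the fasted one. Mterf2 (chr10:85119433-85128027), a regulator of transcription of mitochondrial DNA, ran from 0.404 to 3.36 for db/m, from 0.469 to 3.32 for db/db and from 2.64 to 3.48 for IF mice, with medians of 1.09, 2.93 and 3.05. The db/m mice formed a low set of 6 and a high set of 5, the db/db mice a low set of 4 and a high set of 6, and every IF mouse lay in the high range. Its SD was 0.085 in IF against 0.724 in db/db mice (adjusted p = 5.25e-08). Scyl2 (chr10:89638720-89686317), a kinase-like protein of clathrin-coated vesicles, had 5 db/db mice at or under 4.4 and 5 at or above 10.7. The IF mice ran from 1.95 to 3.48, below every db/db mouse and overlapping the lowest db/m mice (SD 0.189 against 0.89, adjusted p = 2.82e-06).

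The spread was also narrower in IF mice for Tmem209 (6.62 to 32 in db/db and 18.6 to 28.5 in IF mice, adjusted p = 0.00102). Slc25a36, a carrier of pyrimidine nucleotides into mitochondria, ran from 33.2 to 161 in db/db and from 63.8 to 90.4 in IF mice (adjusted p = 0.0256). Smoc1, a secreted matrix protein, ran from 2.02 to 11.2 and from 7.13 to 12 (adjusted p = 0.0387). Astn1, an adhesion protein of neurons migrating along glia, ran from 63.1 to 362 in db/db mice, with mice 5 and 7 low, and from 191 to 282 in IF mice (adjusted p = 0.0476). For all of these the IF range lay within or across that of the db/db mice.

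Leaving out 1 mouse moved these calls. The count at both directions ran from 330 to 924 loci, and it was 849 without IF mouse 2 and 924 without IF mouse 4, against 472 with all mice. The call was lost for Tmem135 without IF mouse 1 or 2 and for Slc25a36 without db/db mouse 3, 6 or 9. It was lost for Smoc1 with any of 10 mice left out and for Astn1 with any of 20, and it was kept for the other 8 genes whichever mouse was left out. With the read-quality sets centred separately it was lost for Scyl2 (adjusted p = 0.105) and Smoc1 (adjusted p = 0.0566). When deviations were taken from the group median instead of the mean, 13 loci were wider and 0 narrower at the adjusted threshold, with 1651 and 179 at an unadjusted p under 0.05. None of the 12 genes above was then called, with adjusted p from 0.2 for Scyl2 to 0.598 for Astn1.

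Between db/db and db/m mice the spread differed at few loci. It was wider in db/db mice at 50 loci (0.292%) and narrower at 28 (0.163%), in all 78 loci (0.455%), with 834 and 481 at an unadjusted p under 0.05. At the 50 loci the farthest db/db mouse lay below the group median at 42 (84%, against 56.7% of all loci). It was mouse 2 at 11 loci (22%, against 9.65% of all loci) and mouse 10 at 10 (20%, against 26.4%). With the group median in place of the mean, limma called 0 loci, and 339 wider and 139 narrower loci had an unadjusted p under 0.05. With deviations from the group mean but the 2 read-quality sets centred separately, 41 loci were called. With loci left out whose mice fall on both sides of a gap of over 2 on the log2 scale, 19 loci were wider and 18 narrower.

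Hey1 (chr3:8663359-8667038), a repressor switched on by Notch, had the smallest adjusted p of the 6 named genes wider in db/db mice. It ran from 31.1 to 34.8 for db/m, from 13.8 to 38.4 for db/db and from 24.1 to 36 for IF mice, with medians of 32.9, 34.8 and 32.5. Mice 3, 4 and 5 of db/db were at or under 19.7, below every db/m mouse, and the other 7 overlapped the other groups (SD 0.501 against 0.042, adjusted p = 0.00133). The spread of Hey1 was also narrower in IF than in db/db mice (SD 0.172, adjusted p = 0.0124).

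Phf21a, a histone reader of the LSD1 repressor complex, ran from 57.6 to 65.9 in db/m and from 16.7 to 72.3 in db/db mice, with mice 4, 5 and 10 low (adjusted p = 0.00931). Exoc3, a subunit of the exocyst that tethers secretory vesicles, ran from 24.3 to 27.5 and from 9.22 to 26.4, with mice 4, 6 and 10 low (adjusted p = 0.0182). Cnpy3, a chaperone of Toll-like receptors, ran from 22.2 to 25.3 and from 7.67 to 25.6, with mice 7 and 8 low (adjusted p = 0.033). Zeb1, a transcription repressor, ran from 71.4 to 85.2 and from 15.1 to 81.5, and Slc35a5 of the nucleotide sugar transporter family from 7.76 to 9.58 and from 2.62 to 10.6 (adjusted p = 0.0237 and 0.0194). For Phf21a, Exoc3, Zeb1 and Slc35a5 the IF mice were spread as well, and all of these were also wider in IF than in db/m mice (adjusted p from 0.000132 to 0.0212).

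In the other direction, Mospd1 on the X chromosome ran from 2.97 to 14.4 for db/m, from 12 to 15.9 for db/db and from 8.47 to 13.9 for IF mice, with medians of 12.4, 14.1 and 11.6. Mice 1, 5 and 6 of db/m were at or under 3.49, below every other mouse (SD 0.809 against 0.107 in db/db mice, adjusted p = 0.00201). Lrfn2, a synaptic adhesion protein, ran from 1.42 to 4.72 in db/m mice, with mice 1, 2, 3 and 6 low, and from 4.16 to 5.45 in db/db mice (adjusted p = 0.00332). Unc5d, a netrin receptor, ran from 0.124 to 5.34 and from 2.87 to 4.61, with db/m mice 1, 3 and 7 low (adjusted p = 0.00508). Mmp14, a matrix protease of the cell surface, ran from 3.07 to 8.18 and from 4.95 to 6.21 (adjusted p = 0.0117).

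Pcyox1l ran from 18.1 to 43.8 in db/m and from 38.4 to 50.1 in db/db mice, with db/m mice 2, 4, 5 and 11 low (adjusted p = 0.0448). Cdh4, the R-cadherin, ran from 1.81 to 5.08 in db/m and from 2.03 to 2.62 in db/db mice, with mice 1 and 11 of db/m the highest (adjusted p = 0.0209). The call of Cdh4 was lost without db/m mouse 1 (adjusted p = 0.128) or 11 (adjusted p = 0.111). Of the 12 genes, the calls of Hey1 and Lrfn2 were kept with any 1 mouse left out, and that of each of the others was lost with at least 1 mouse left out (for Pcyox1l with any of 13 mice, for Mospd1 with db/m mouse 1, 5 or 6). With the read-quality sets centred separately the calls of Hey1 and Lrfn2 were lost (adjusted p = 0.186 and 0.343), as were those of Cnpy3, Slc35a5, Pcyox1l and Cdh4 (adjusted p from 0.101 to 0.265).

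Between the fasted IF and the db/m mice the spread was wider at 1339 loci (7.81%) and narrower at 108 (0.63%), in all 1447 loci (8.44%), with 4207 and 407 at an unadjusted p under 0.05. The wide loci were often secondary loci of a gene. Among loci beyond the first of their gene, that is of lower mean FPKM than another locus of the same name, 23.9% of 2184 were called in either direction, against 6.06% of 13240 first loci. Of the 1339 wide loci 511 were such secondary loci. Several can belong to 1 gene, as with the 38 loci of Kcnip4, so the loci called are not a count of genes. The median pooled within-group SD was 0.281 for secondary and 0.167 for first loci. Mouse 1 of IF was most often the farthest at the 1339 loci (315, 23.5%), followed by mouse 7 (262, 19.6%), which was the farthest at 33.4% of all loci. Without IF mouse 11 the count was 899 in place of 1447, and with deviations from the group median 80 loci were wider and 1 narrower, and of the 12 genes named for this comparison only Gramd2 was still called (adjusted p = 0.0184).

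Itpr2, the inositol trisphosphate receptor of calcium stores that prevails in astrocytes, ran from 6.73 to 7.76 for db/m, from 0.061 to 8.17 for db/db and from 0 to 10.2 for IF mice. Mice 2, 5, 6 and 7 of IF lay between 0 and 1.9, and mouse 7 of db/db was low as well (SD 1.51 in IF against 0.055 in db/m mice, adjusted p = 0.000591). Itpr2 has 3 loci, whose summed value ran from 4.99 to 18.2 in IF against 13.3 to 15.1 in db/m mice. Tagap1 ran from 3.65 to 4.32 in db/m and from 0.281 to 4.07 in IF mice, with mice 2, 8 and 9 low (adjusted p = 0.00126). L3mbtl2, a Polycomb-group protein, was low in IF mice 2 and 4 (2.33 to 12.2 against 10 to 11.2 in db/m mice, adjusted p = 0.00657). Nfkbil1 was listed at 0 in IF mouse 4 (adjusted p = 0.0474), and the call was lost with any of 23 mice left out.

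Narrower in IF than in db/m mice were Rtn1, a reticulon of the endoplasmic reticulum of neurons (230 to 504 in db/m and 519 to 581 in IF mice, adjusted p = 0.00522), and Exoc2, another exocyst subunit (3.17 to 14.8 and 9.54 to 13.4, adjusted p = 0.0229). The Rtn1 range of IF mice lay above that of db/m mice without overlap. Gramd2 was narrower in both diabetic groups than in db/m mice (0.238 to 1.2 for db/m, 0.805 to 1.32 for db/db and 0.709 to 0.911 for IF mice, adjusted p = 0.00819 for db/db and 0.000301 for IF mice). Nol4l ran from 3.2 to 28.4 in db/m mice, with mice 6 and 11 low, and from 14.6 to 22.1 in IF mice (adjusted p = 0.0471, lost with any of 19 mice left out). Mterf2 and Smoc1 were narrower here too (adjusted p = 2.38e-08 and 0.011). These comparisons share the mice of the groups above and are not independent of them.

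**Figure D3:**
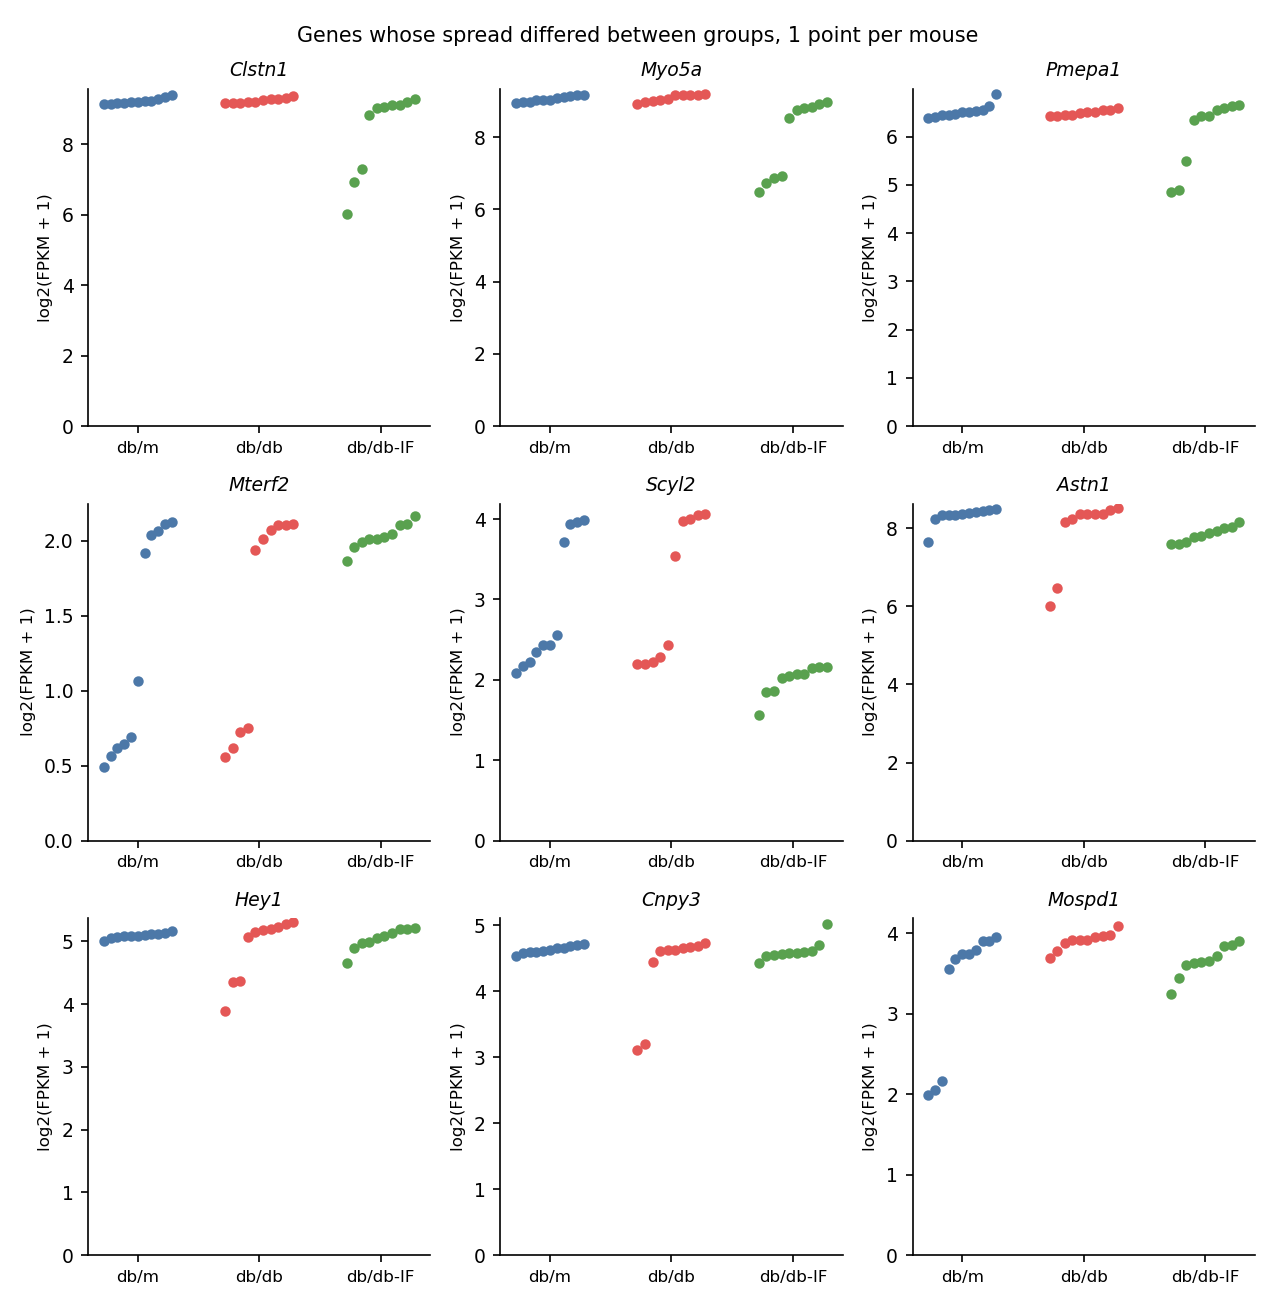
Log2(FPKM + 1) of 9 genes (vertical axes, each from 0) in db/m, db/db and IF mice, 1 point per mouse sorted by value within its group. Clstn1, Myo5a and Pmepa1 have low IF mice, Mterf2, Scyl2 and Astn1 vary in db/db and are tight in IF mice, Hey1 and Cnpy3 have low db/db mice, and Mospd1 has 3 low db/m mice.

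Long transcripts were called more often between IF and db/db mice. Among first loci with a reference transcript length, 2.62% of the longest 4191 loci were wider in IF mice, 1.93% of the middle 4193 and 0.954% of the shortest 4195. The median SD rose with length in every group, from 0.161 to 0.235 in IF, from 0.124 to 0.169 in db/db and from 0.113 to 0.15 in db/m mice. Among loci with a group median FPKM of at least 20, 45 values were at 0 for db/m, 59 for db/db and 82 for IF mice, with 14 in IF mouse 1, 13 in each of mice 5 and 7 and at most 8 in any other mouse. The part of length and of listed zeros in the wider spread was not tested.

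The genes that varied most relative to their level of expression included Gh and Ttr, and the tissue source of their RNA was not tested. Gh, growth hormone of the pituitary, ran from 0 to 255 for db/m, from 0 to 1966 for db/db and from 0.146 to 41.9 for IF mice, with medians of 4.03, 1.02 and 4.62. Mouse 5 of db/m, mouse 3 of db/db and mouse 4 of IF stood far above the others of their groups. Pomc, the pituitary hormone precursor also made in the hypothalamus, was highest in the same 3 mice, at 33.6, 42.5 and 14.7. Ttr, the thyroid hormone carrier made by the choroid plexus, ran from 660 to 32960 for db/m, from 762 to 26189 for db/db and from 4208 to 31657 for IF mice. None of these differed in spread between groups at the threshold (adjusted p at least 0.0786).

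Other genes were listed at 0 in a single mouse of a group and at 31.3 or higher in each of its other mice. Tuba1b, an alpha-tubulin that nearly every cell makes, was listed at 0 in db/db mouse 1 and in IF mouse 2, and lay between 94.5 and 147 in the other mice of the 3 groups. Ppt2, a lysosomal thioesterase, was listed at 0 in db/m mouse 6, and Mat2a, which makes S-adenosylmethionine, in db/db mouse 1. In IF mice Kcnip4, a subunit of A-type potassium channels, was listed at 0 in mouse 1, Nrg3, a neuregulin, in mouse 2, Rasgrp2, an activator of Rap, in mouse 1 and Trim37, a ubiquitin ligase, in mouse 7. Several of these have other loci that were not at 0. The summed value of the 38 loci of Kcnip4 in IF mouse 1 was 1381 against a group median of 1166, while that of both loci of Rasgrp2 was 0. Of the 49 genes named for their spread, 16 have more than 1 locus.

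A further set varied over a wide range in all groups. Ids, a lysosomal sulfatase, ran from 78.3 to 363 for db/m, from 79.9 to 378 for db/db and from 0.614 to 255 for IF mice. Urgcp ran from 45.3 to 716, from 77.3 to 726 and from 44.3 to 791, and Apba1, a neuronal adaptor of Munc18, from 61.2 to 348, from 29.3 to 377 and from 11.1 to 281. Cdk5r1, the activator of the kinase Cdk5, ran from 0.347 to 37.6, from 2.65 to 40.7 and from 0.263 to 27.1. Pcdh20 and Gfod1 were near 0 in 1 db/db mouse each (0.406 in mouse 8 and 0.937 in mouse 2), with group medians of 149 and 76.1. None of the genes of the last 2 paragraphs passed the threshold of a comparison.

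Genes that covaried within groups were described by the median Pearson correlation over all pairs of a list. Over 12985 first loci this median was 0.011 for db/m, 0.017 for db/db and 0.022 for IF mice. In 13 of 22 gene lists it was at least 0.3 with the group means removed. The members of a list were measured in the same 10 or 11 libraries, so their median correlation is a description, and no test was made of it. The counts below of genes with their highest SD in 1 group stand beside 15.4% of all loci for db/m, 19.3% for db/db and 65.3% for IF mice. Counts of values at an unadjusted p under 0.05 stand beside those of all 17139 loci. These were 2920 wider and 466 narrower for IF against db/db and 834 and 481 for db/db against db/m. For IF against db/m they were 4207 and 407. Members past the threshold stand beside 2.75%, 0.455% and 8.44% of all loci in these comparisons.

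The choroid plexus genes moved closely together. Of 14 genes 12 were tested, with a median pairwise correlation of 0.945 for db/m, 0.921 for db/db and 0.911 for IF mice. Their median SD was 0.95 for db/m, 0.595 for db/db and 0.621 for IF mice, and the SD was highest in db/m mice for 10 of the 12. In db/m mice the mean of the list ran from 2.15 in mouse 7 to 4.71 in mouse 6 on the log2(FPKM + 1) scale. Kcne2, a potassium channel subunit, ran from 0.823 to 24.6 in db/m and from 2.67 to 15.9 in IF mice, and its spread was narrower in IF mice (adjusted p = 0.0344). The same held for the prolactin receptor gene Prlr (3.23 to 22.3 and 4.06 to 17.3, adjusted p = 0.0325). The genes closest to Ttr over the 31 mice with group means removed were Kcnj13 (r = 0.979), a potassium channel, the coagulation factor gene F5 (0.97), Kcne2 (0.967) and the lactate transporter gene Slc16a8 (0.949). Ttr and the folate receptor gene Folr1 had r = 0.893 (permutation adjusted p = 2.75e-05 over 11 pairs) and rho = 0.877 (permutation adjusted p = 3.67e-05), and r = 0.876 without db/m mouse 7 and db/db mouse 8.

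Genes of motile cilia, which mark the ependyma of the ventricle, had a median correlation of 0.373 for db/m, 0.731 for db/db and 0.753 for IF mice, over 9 tested genes. The high IF mouse was 7, where Ccdc153 reached 46.9 against a median of 15.7, and the low db/db mouse was 8, where the dynein gene Dnah6 was 0.615 against a median of 3.81. Genes of meninges and fibroblasts had correlations of 0.425, 0.553 and 0.609 and median SDs of 0.286, 0.362 and 0.452 in db/m, db/db and IF mice. The SD was highest in IF mice for 10 of these 12 genes. Col1a1, a chain of collagen I, was closest to its partner chain Col1a2 (r = 0.917), the fibronectin receptor gene Itga5 (0.899), Cped1 (0.857) and the retinoic acid enzyme gene Aldh1a2 (0.852). Col1a1 and Col3a1 had r = 0.819 (permutation adjusted p = 2.75e-05, rho = 0.833 with permutation adjusted p = 3.67e-05, r = 0.802 without IF mouse 2 and db/db mouse 9).

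Red blood cell genes were represented by 3 loci: Alas2, the first enzyme of haem synthesis in erythroid cells, a locus shared by Hbb-bs and Hbb-bt and a locus shared by Hba-a1, Hba-a2 and Hbq1b. The Hbb-bs locus ran from 18.1 to 48 for db/m, from 17.7 to 61.5 for db/db and from 36.9 to 152 for IF mice, with medians of 30, 37.8 and 58. Mouse 7 of IF was the high one, for the Hba-a1 locus too (272 against a group median of 105). The alpha and beta loci had r = 0.935 (permutation adjusted p = 2.75e-05, rho = 0.9 with permutation adjusted p = 3.67e-05), and 0.902 without IF mouse 7 and db/db mouse 8. Among the genes closest to the Hbb-bs locus were Hbb-b1, another beta-globin gene (0.959), Alas2 (0.914) and Tmed3 (0.74). In the ciliary, meningeal and red blood cell lists 0 members passed the threshold of limma in any of the 3 comparisons, with 3, 1 and 0 values at an unadjusted p under 0.05.

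Myelin genes varied most among the controls. The 14 genes had a median SD of 0.424 for db/m, 0.202 for db/db and 0.219 for IF mice, the SD was highest in db/m mice for 13 of them, and the median correlation was 0.93, 0.765 and 0.572. Mog, a glycoprotein of the myelin surface, ran from 90.1 in mouse 10 to 314 in mouse 1 of db/m, from 155 to 245 in db/db and from 153 to 240 in IF mice, with medians of 214, 196 and 189. The db/m range contained those of the other groups. The db/m mouse farthest out was mouse 10, and without it the median SD of the list in db/m mice was 0.306. None of the 14 genes passed the threshold of limma in a comparison (5 of 42 values at an unadjusted p under 0.05 over the 3 comparisons).

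Markers of striatum and thalamus varied most in db/m mice, and mouse 11 stood out for both. Adora2a, the adenosine receptor of striatal output neurons, ran from 1.46 to 9.58 for db/m, from 1.3 to 2.38 for db/db and from 1.15 to 2.13 for IF mice, with medians of 1.83, 1.73 and 1.66. Mouse 11 was followed by mice 9 and 10 of db/m, at 4.66 and 4.56. Its spread was narrower in IF than in db/m mice (SD 0.155 against 0.675, adjusted p = 0.0161). Penk, the precursor of enkephalin, was at 73.7 in db/m mouse 11 against a median of 25.6, and its spread was narrower in db/db and in IF mice (adjusted p = 0.0156 and 0.0111). Penk was the gene closest to Adora2a over 31 mice (r = 0.879), followed by Foxp2 (0.735), Cdh4 (0.728) and Syndig1l (0.702). Tcf7l2, a transcription factor of thalamic neurons, was at 26.4 in mouse 11 and 11.4 in mouse 2 against a median of 4.81 in db/m mice, and Slc17a6, the vesicular glutamate transporter of the thalamus, at 6.75 in mouse 11 against 1.64.

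For the striatal list the median correlation in db/m mice was 0.638, and 0.172 without mouse 11. In db/db and IF mice it was 0.213 and 0.126. For the thalamic list it was 0.697 in db/m mice, 0.664 without mouse 11, 0.39 in db/db and 0.121 in IF mice. Tcf7l2 and the kinase gene Prkcd had r = 0.367 (permutation adjusted p = 0.0606, rho = 0.167 with permutation adjusted p = 0.438), and -0.0721 without db/m mice 11 and 2, so this relation rested on those mice. Prkcd was closest to the sodium channel subunit gene Scn4b (0.728), Synm (0.704), Arhgef10l (0.685) and Rab31 (0.674).

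Markers of the hippocampal subfields themselves moved together in db/m mice, with a median correlation of 0.557 over 13 genes, against 0.0116 in db/db and 0.033 in IF mice. Mouse 1 of db/m was low for Prox1, which specifies granule cells of the dentate gyrus (0.644 against a median of 6.96, with mice 6 and 8 at 1.83 and 1.1), and for Dsp, a desmosomal protein of the same cells (9.58 against 28). Without mouse 1 the correlation in db/m mice was 0.337. Wfs1, a marker of CA1 neurons, was low in other mice, at 16.7 in db/db mouse 1 and 24.5 in IF mouse 2 against medians of 207 and 141. Zbtb20, a transcription factor of hippocampal neurons, was wider in IF than in db/m mice (6.23 to 18.2 against 5.73 to 8.77, adjusted p = 0.0466). It was the only one of the 13 genes past the threshold, and 7.81% of all loci were wider in this comparison.

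Immediate early genes covaried most in IF mice. The median correlation of 20 genes was 0.405 for db/m, 0.136 for db/db and 0.598 for IF mice, and the SD was highest in IF mice for 17 of the 20. Without db/m mouse 1, db/db mouse 1 and IF mouse 6 in turn, the correlation in that group was 0.286, 0.0381 and 0.553. Over all mice with group means removed it was 0.423. It was 0.29 with the leading axis removed, 0.297 without IF mice 1, 7 and 11 and 0.273 without the 3 farthest mice of each group. Fos, the transcription factor subunit induced by neuronal firing, ran from 5.55 to 18.3 for db/m, from 4.84 to 9.45 for db/db and from 2.6 to 19.6 for IF mice, with medians of 7.86, 7.17 and 5.25. Mouse 6 of IF and mouse 1 of db/m were the high mice, mouse 1 of IF was the lowest, and the groups overlapped. None of the 20 genes passed the threshold of limma in a comparison (9 of 60 values at an unadjusted p under 0.05). The genes closest to Fos were the phosphatase gene Dusp1 (0.851), Egr1 (0.779), the synaptic gene Arc (0.77) and Junb (0.736). Fos and Dusp1 had rho = 0.763 (permutation adjusted p = 5.5e-05 for rho and 2.75e-05 for r), and r = 0.73 without IF mouse 6 and db/m mouse 1. Fos and Arc had rho = 0.569 (permutation adjusted p = 0.00514 for rho and 6.6e-05 for r), and r = 0.61 without the same mice. Fos and Npas4, a neuronal activity factor, had r = 0.451 (permutation adjusted p = 0.00666) and rho = 0.54 (permutation adjusted p = 0.00514), with 0.817 in IF and -0.0452 in db/db mice. Without mouse 6 of IF and mouse 1 of db/m this was 0.459.

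Fos correlated with Dusp1 and Junb at r = 0.912 and 0.936 in IF mice, at 0.907 and 0.482 in db/m and at 0.512 and 0.114 in db/db mice. As these genes moved together in IF mice, the 250 bases before their RefSeq start are shown (GRCm38.p6, 5′ to 3′ on the strand of the gene). Capitals mark TGACG, the half-site of the cAMP response element, on either strand, and in Dusp1 they also cover the full palindrome TGACGTCA. The Fos stretch is chr12:85473640-85473889 on the plus strand, Dusp1 is chr17:26508473-26508722 and Junb chr8:84978749-84978998, both on the minus strand.
Fos: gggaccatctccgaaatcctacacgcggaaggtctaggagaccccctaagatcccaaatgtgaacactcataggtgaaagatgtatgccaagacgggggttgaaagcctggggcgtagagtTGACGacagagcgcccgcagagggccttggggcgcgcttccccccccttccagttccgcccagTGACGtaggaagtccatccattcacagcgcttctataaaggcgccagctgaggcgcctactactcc
Dusp1: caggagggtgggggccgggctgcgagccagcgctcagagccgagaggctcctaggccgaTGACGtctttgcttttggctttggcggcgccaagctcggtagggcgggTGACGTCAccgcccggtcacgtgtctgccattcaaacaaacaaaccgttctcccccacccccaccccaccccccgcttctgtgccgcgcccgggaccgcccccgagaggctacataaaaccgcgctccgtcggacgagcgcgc
Junb: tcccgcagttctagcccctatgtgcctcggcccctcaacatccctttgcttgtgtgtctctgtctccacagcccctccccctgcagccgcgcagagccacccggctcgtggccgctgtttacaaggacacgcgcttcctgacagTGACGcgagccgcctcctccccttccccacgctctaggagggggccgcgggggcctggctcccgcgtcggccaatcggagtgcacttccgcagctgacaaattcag
Among all 32851 RefSeq windows, which run from 250 bases before to 50 after a start, TGACG was present in 20.8% on either strand and TGACGTCA, which contains it, in 1.79%. Of 21 windows of 15 immediate early genes, 11 (52.4%) held TGACG and 2 (9.52%), of Btg2 and Dusp1, held TGACGTCA. TGACG was also present in 5 of 9 windows (55.6%) of the interferon response and MHC class I genes. A match is a description of the letters and says nothing of binding in these mice.

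The interferon response and MHC class I genes had a median correlation of 0.73 in IF mice, against 0.287 in db/m and 0.275 in db/db mice, over 10 tested genes. Their median SD was 0.259 in IF, 0.239 in db/m and 0.154 in db/db mice. Irf7, a regulator of interferon genes, ran from 2.45 to 4.93 for db/m, from 1.77 to 3.3 for db/db and from 1.84 to 6.17 for IF mice, highest in mouse 11. Ifit1, an interferon-induced RNA-binding protein, was at 4.44 in IF mouse 5 against a median of 1.21. Without mouse 11 the correlation in IF mice was 0.544. The Ifit3 locus, shared with Ifit3b, was at 0.0134 in db/m mouse 11 against a median of 8.55. None of the 10 genes passed the threshold of limma in a comparison (6 of 30 values at an unadjusted p under 0.05).

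The same stretch is shown for Ifit1 (chr19:34640639-34640888) and Ifit3 (chr19:34583279-34583528), both on the plus strand. Capitals mark the core of the interferon-stimulated response element, in which TTTC recurs after any pair of bases, on either strand.
Ifit1: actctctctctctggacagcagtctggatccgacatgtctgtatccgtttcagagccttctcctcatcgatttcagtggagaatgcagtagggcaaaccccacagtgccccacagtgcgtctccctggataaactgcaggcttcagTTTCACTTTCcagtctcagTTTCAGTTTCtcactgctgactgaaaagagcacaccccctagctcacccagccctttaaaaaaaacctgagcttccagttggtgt
Ifit3: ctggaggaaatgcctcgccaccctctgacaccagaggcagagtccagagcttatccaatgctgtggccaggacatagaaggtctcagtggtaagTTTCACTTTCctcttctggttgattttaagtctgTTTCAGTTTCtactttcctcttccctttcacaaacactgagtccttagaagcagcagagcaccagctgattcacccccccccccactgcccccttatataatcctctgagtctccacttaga
This core was present in 3.44% of all windows and in 4 of 9 windows (44.4%) of the list, those of B2m, Bst2, Ifit1 and Ifit3, and in 3 of 21 (14.3%) of the immediate early genes. Each stretch holds it at 2 places.

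**Figure D4:**
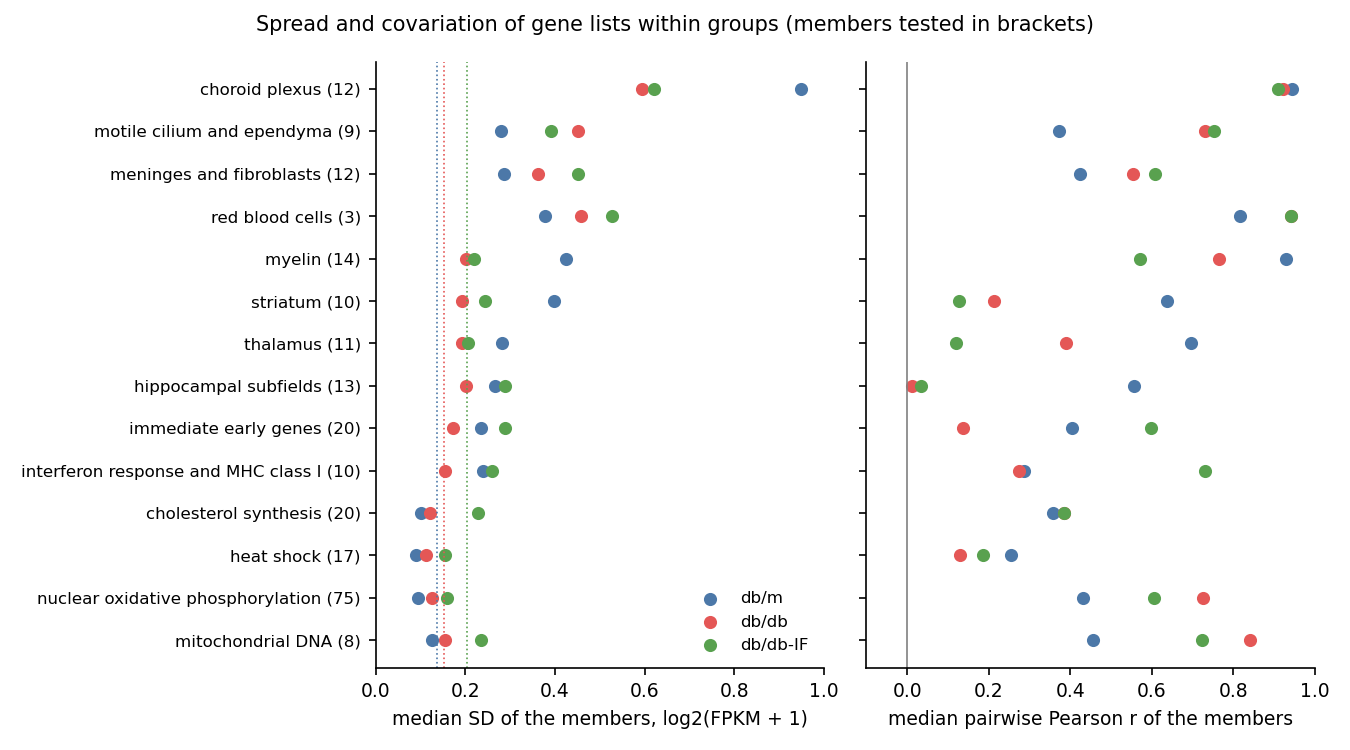
Median SD of log2(FPKM + 1) over the tested members of 14 gene lists (left, dotted lines are the medians over all 17139 loci) and median pairwise Pearson r of the members (right) in db/m, db/db and IF mice. Choroid plexus genes have an r above 0.9 in all groups, myelin, striatum, thalamus and hippocampal subfield genes have their highest r in db/m, and immediate early and interferon genes have theirs in IF mice.

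The genes of cholesterol synthesis varied less than the median locus in the freely fed groups and more in the fasted one. The 20 genes of cholesterol synthesis and uptake had a median SD of 0.102 for db/m, 0.122 for db/db and 0.228 for IF mice, against 0.138, 0.152 and 0.203 over all loci, and the SD was highest in IF mice for 15, against 65.3% of all loci. Without IF mouse 11, the farthest for this list, the median SD of IF mice was 0.203. That did not exceed the value over all loci with every mouse kept. Srebf2, the transcription factor that switches the pathway on, ran from 137 to 173 for db/m, from 127 to 168 for db/db and from 54.1 to 169 for IF mice, with medians of 147, 149 and 118. Mice 1 and 11 of IF were lowest, and the spread was wider than in db/db (adjusted p = 0.0157) and in db/m mice (adjusted p = 0.00493). Sc5d, a late enzyme of the pathway, ran from 19.5 to 24.1 in db/m and from 4 to 19.9 in IF mice and was wider than in db/m mice (adjusted p = 0.0258). Of 17 heat shock genes 2 were wider in IF than in db/m mice, where 7.81% of all loci were, the cochaperone gene Chordc1 (2.25 to 5.77 against 6.57 to 7.87, adjusted p = 0.0205) and the mitochondrial chaperonin gene Hspd1 (171 to 226 against 217 to 246, adjusted p = 0.035).

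Of 15 glucocorticoid response genes 1 passed the threshold, Nfkbia, the inhibitor of NF-kappa-B, which was wider in db/db mice than in db/m (6.33 to 12.1 against 6.78 to 7.94, adjusted p = 0.0452). Fkbp5, a chaperone induced by glucocorticoids, whose mice also fell on both sides of a wide gap, ran from 4.28 to 26.5 for db/m, from 3.34 to 32 for db/db and from 0 to 36.1 for IF mice. Fkbp5 and Sgk1, another target, had r = 0.273 (permutation adjusted p = 0.133, rho = 0.185 with permutation adjusted p = 0.396, r = 0.166 without IF mouse 7 and db/db mouse 10). Among 17 clock genes Clock itself was wider in IF than in db/m mice (1.19 to 44.1 against 1.78 to 48.4, adjusted p = 0.0458), on a locus whose mice fell on both sides of a wide gap. Dbp, on a locus shared with Car11, and Per3 had r = -0.151 (permutation adjusted p = 0.411, rho = -0.0605 with permutation adjusted p = 0.752, r = -0.0272 without IF mouse 7 and db/db mouse 3). The genes closest to Fkbp5 were Nars2 (0.679), Zmym1 (0.672), Cdr2l (0.661) and Wtap (0.648), and those closest to the Dbp locus were Gltscr2 (0.822), Dda1 (0.783), Idh3g (0.767) and Nabp2 (0.758), none of them members of the lists. The median correlation within these 2 lists was at most 0.176 in any group.

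Among markers of other cells, 1 gene of each of 2 lists passed the threshold for a wider spread in IF than in db/m mice, a share near the 7.81% of all loci: Fgfr3 of 11 astrocyte genes (46.4 to 78 against 68.8 to 88.5, adjusted p = 0.0281) and Itgam of 12 microglia genes, 10 of which had their highest SD in IF mice (0.765 to 4.24 against 4.84 to 6.8, adjusted p = 0.0458). Sox11, a factor of newborn neurons, was wider in IF than in db/db mice (5.14 to 11.6 against 5.34 to 7.63, adjusted p = 0.0378), with mouse 1 the high one, and was the only one of 8 tested genes of neurogenesis and proliferation past the threshold. Of 14 neuropeptide and pituitary hormone genes only Penk passed it. None of 13 endothelial genes and none of 10 neocortical genes passed the threshold of limma (3 of 39 and 4 of 30 values at an unadjusted p under 0.05). Cldn5, the tight junction protein of brain vessels, and the receptor gene Flt1 had r = 0.495 (permutation adjusted p = 0.0107, rho = 0.484 with permutation adjusted p = 0.0127, r = 0.472 without IF mouse 6 and db/m mouse 8).

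Of the 11 gene pairs tested 8 passed the threshold by r, namely all but Dbp with Per3, Fkbp5 with Sgk1 and Tcf7l2 with Prkcd. The pair of Adora2a and Drd2 was not tested because Drd2 did not pass the filter.

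**Figure D5:**
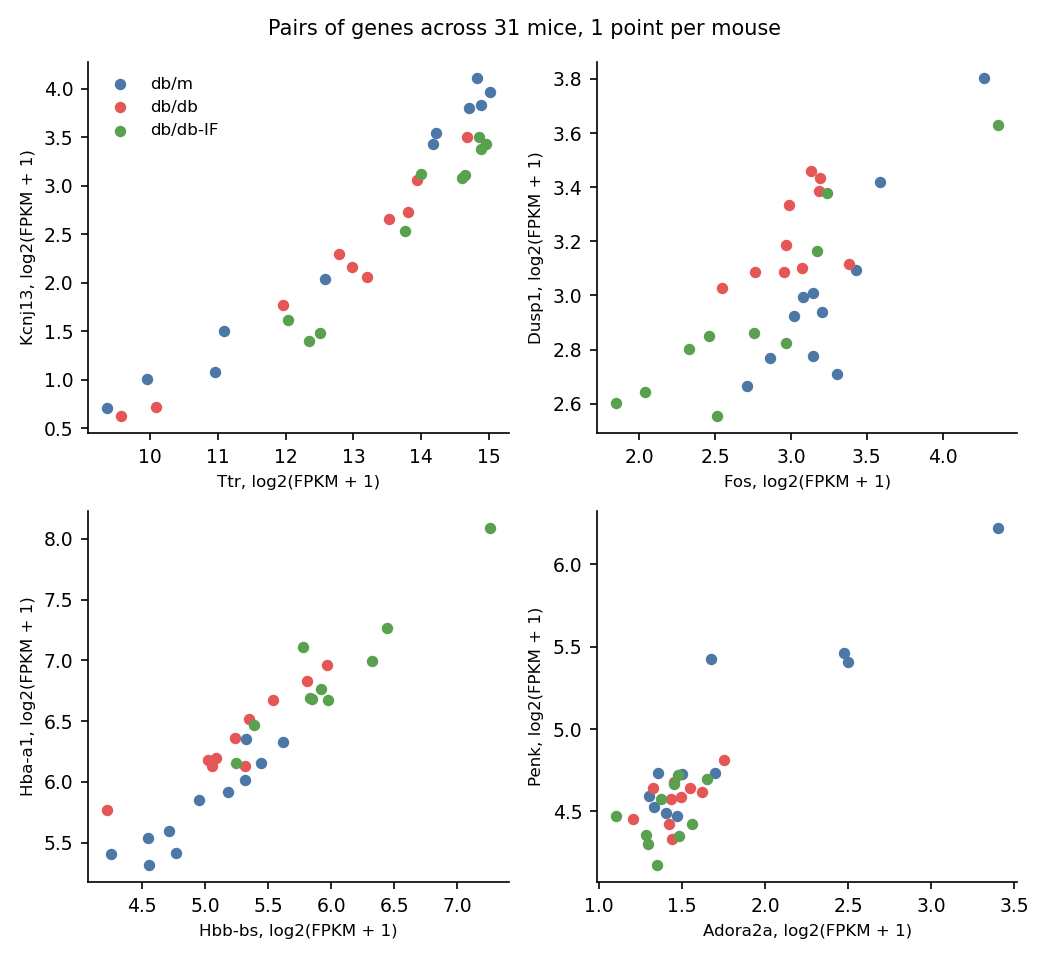
Log2(FPKM + 1) of 4 pairs of genes across 31 mice, 1 point per mouse coloured by group. Kcnj13 rises with Ttr, Dusp1 with Fos and the Hba-a1 locus with the Hbb-bs locus in every group, while for Penk and Adora2a the upper range holds db/m mice only, with mouse 11 at the top.

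The leading pattern of covariation over all mice, and within db/db and IF mice, went with transcript length. The leading axis, a principal component of the values with group means removed, held 12.8% of the variance of 12985 loci over all mice, 16.2% within db/m, 18.9% within db/db and 25.4% within IF mice. The axes of db/db and IF mice taken alone correlated with the joint one at r = 0.954 and 0.998, and that of db/m mice at 0.138. Mouse 7 of IF lay at the low end in its group and mouse 10 in db/db. Over the 31 mice the score correlated with the slope of expression on transcript length in each mouse (r = 0.928, rho = 0.858, permutation adjusted p = 4e-05 over 4 measures, the smallest it could give, 0.79 without IF mouse 7 and db/db mouse 10), with 0.955 for db/m, 0.967 for db/db and 0.933 for IF mice. The leading axis of db/m mice taken alone correlated with the slope at r = -0.211, and those of db/db and IF mice at 0.938 and 0.942. Scores and slopes come from the same values. With 3 IF mice (1, 7 and 11) left out the axis held 8.79%.

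At 1 end of the axis stood Slc4a10, a sodium bicarbonate transporter of neurons and choroid plexus (r = 0.958), Yme1l1, a protease of the inner mitochondrial membrane (0.953), the deubiquitinase gene Usp33 (0.948), Sptbn1, a beta-spectrin (0.947), the adaptor gene Crk (0.943), Edem3 (0.942), Fam179b (0.939) and Fmr1, the fragile X protein (0.938). Slc4a10 ran from 1337 to 1840 for db/m, from 1122 to 1854 for db/db and from 428 to 1126 for IF mice, lowest in db/m mouse 10, db/db mouse 10 and IF mouse 7. At the other end stood Eif3k, a subunit of an initiation factor of translation (-0.93), the complex I genes Ndufb7 (-0.905), Ndufb2 (-0.887) and Ndufa13 (-0.881), Timm13 of protein import into mitochondria (-0.898), Atp5e of ATP synthase (-0.889), Bola2 (-0.888) and Uqcr11 of complex III (-0.879). Uqcr11 ran from 70.2 to 91.1, from 66.6 to 99.6 and from 102 to 164, highest in the same 3 mice. The IF range of Uqcr11 lay above both others and that of Slc4a10 overlapped only the lowest db/db mouse. None of the 16 genes passed the threshold for a difference in spread.

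The 75 genes of oxidative phosphorylation encoded in the nucleus shared this pattern, with a median correlation with the joint axis of -0.64 against 0.113 over all loci. Their median transcript length was 1231 bases, against 3327 over the 12985 first loci. The median pairwise correlation of the list was 0.432 for db/m, 0.725 for db/db and 0.605 for IF mice. It was 0.544 in db/db mice without mouse 10 and 0.367 in IF mice without mouse 7. Over all mice with group means removed it was 0.576. It was 0.425 with the trend on transcript length removed, 0.375 with the leading axis removed and 0.68 with mice rescaled to the same median. The part of length in this covariation was not tested. The median SD was 0.0947, 0.127 and 0.159, below that of all loci in each group. Ndufs8, a complex I subunit, was the only member past the threshold, wider in IF than in db/m mice, where 7.81% of all loci were. It ran from 52.7 to 87.7 in IF against 47.4 to 54.5 in db/m mice (limma adjusted p = 0.0417), with IF mouse 7 the high one. The 8 tested loci of mitochondrial DNA, of which 4 are shared by several genes, had correlations of 0.457, 0.841 and 0.723. Their locus of ATP6, ATP8, COX3 and ND5 ran from 20397 to 27737 for db/m, from 16591 to 26037 for db/db and from 17251 to 45450 for IF mice.

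Within db/m mice the leading axis was another one, with mouse 1 at the end (score -0.735). The hippocampal subfield genes correlated with it at a median of 0.809, with 12 of 13 positive, and choroid plexus genes at 0.499, whereas cholesterol genes (-0.615), striatal (-0.557), thalamic (-0.54) and myelin genes (-0.466) went the other way. Within db/db mice, with mouse 10 at the end (score -0.716), oxidative phosphorylation genes (-0.785) and thalamic genes (0.606) stood at the ends. Within IF mice mouse 7 was at the end (score -0.845). There red blood cell (-0.835) and oxidative phosphorylation genes (-0.734) stood against immediate early genes (0.503). The highest scores at the other end were 0.363 for db/m, 0.361 for db/db and 0.319 for IF mice. These medians thus describe in large part how 1 mouse differed from the others of its group.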

How the data were processed

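Whole hippocampi of 31 mice were sequenced on a BGI platform, 1 library per mouse. The authors deposited FPKM values for 27094 loci, made from reads cleaned by Trimmomatic 0.38, mapped by HISAT2 on GRCm38.p6 and assembled by StringTie 1.3.4d. Read counts were not used here, so count models did not apply. StringTie loci can hold several genes, and a gene can have several loci, so the first locus of a gene was the one of highest mean FPKM.

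From the deposited FPKM, log2(FPKM + 1) was computed here, and 17139 loci with FPKM above 1 in at least 10 mice were kept. Absolute deviations from the group mean, scaled for group size, were compared with limma 3.58.1 in R 4.3.3 (trended prior, two-sided, Benjamini-Hochberg adjusted p under 0.05). The distance per mouse was compared with 100000 permutations. In data simulated for IF against db/db over 17139 loci, 12%, 27% and 56% of 200 loci with 2-, 3- and 4-fold SDs were called, with 17 false calls. These false calls were a larger share of the calls than the threshold of 0.05 sets. The counts of called loci can therefore hold more false calls than that threshold states. Correlations used group means removed (Python 3.11.15, scipy 1.17.1, numpy 2.4.6), and pairs were tested with 100000 permutations, of which the smallest p is 1e-05. Promoter sequences and gene positions are from RefSeq, and positions were matched by gene name and not by locus. P-values rest on the variation between these mice, with 1 library each.

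Genes were named by rule: in each direction of each comparison the 6 with the largest ratio of SDs past the threshold, the 10 most variable relative to a trend on level and the 6 of largest SD in each group, the 8 at each end of the leading axis, the 4 closest to each of 9 anchor genes, list members of the largest SD or past the threshold, and the genes of the pairs. A few genes named by the rule are not reported here. Named genes had a single symbol, and those named for spread, the axis or closeness were not split, a split being a gap of over 2 (log2) inside a group that leaves 2 or more mice either side. The members, lists and pairs were chosen with earlier results of these data known. Alternatives were the pseudocount, filters, centre, power, prior and test, scalings, read-quality sets, locus choice, replicate block, threshold and each mouse left out. Leaving out several mice together was chosen after seeing the data.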

Additional observations from a re-analysis of the deposited data

Results flagged for a closer look

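In 39 of 218 groups of 10 mice examined, 1 mouse stood apart from the rest of its group by Dixon's test. Chance gives about 1 in 20 among groups not chosen by their values, but most of these genes were named for their spread or covariation, so the count is a description. The db/m group of 11 mice was not examined. No cause was tested.

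Mouse 7 of IF accounted for many of these. Its distance from the other mice was 0.24 against a group median of 0.127, and its score on the leading axis was -0.72 against 0.0937. Its FPKM was low for Tmem209 (18.6), Scyl2 (1.95), Nol4l (14.6), the lysosomal gene Ids (0.614) and the lipid droplet gene Plin4 (5.1), and Trim37 was listed at 0. It was high for Cnpy3 (31.4), the oligodendrocyte gene Opalin (24.9), the Dbp locus (54) and Eif3k (141). Mouse 10 of db/db had a distance of 0.16, low values of Sc5d (6.41) and Slc4a10 (1120) and a high value of Eif3k (104).

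Among the other IF mice, mouse 1 was listed at 0 for Kcnip4 and Rasgrp2 and was low for the fibroblast gene Islr (0.0144) and for Itgam (0.765). Mouse 2 was low for Lrfn2 (1.76) and Wfs1 (24.5) and was listed at 0 for Tuba1b and Nrg3. Mouse 4 was listed at 0 for Nfkbil1. Mouse 5 was high for Ifit1 (4.44) and mouse 6 low for Cdh4 (1.37).

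Among the other db/db mice, mouse 1 was listed at 0 for Tuba1b and Mat2a and was low for Wfs1 (16.7). Mouse 2 was low for Gfod1 (0.937). Mouse 3 was high for the pituitary genes Gh (1970 against a median of 1.02) and Pomc (42.5 against 0.757) and low for L3mbtl2 (5.67). Mouse 5 was low for Tagap1 (0.7), mouse 7 for Itpr2 (0.061) and Trim37 (56), mouse 8 for Pcdh20 (0.406) and mouse 9 for Nol4l (16.1).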

How the results depend on the processing

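More loci were wider than narrower in IF mice under every alternative. The median SD was lowest in db/m and highest in IF mice under every alternative but 1, the omission of IF mice 1, 7 and 11 (0.147 against 0.152 in db/db mice). Counts of loci are given for IF against db/db (A), db/db against db/m (B) and IF against db/m (C), and for the 3 groups jointly (472, 78, 1447 and 1054). Deviations from the group median gave 13, 0, 81 and 34, squared deviations 74, 2, 383 and 202, and a ratio of variances with the F distribution 1017, 702, 2528 and 2689. A mean FPKM of at least 10 gave 257, 51, 641 and 497 with a db/m SD of 0.121, and an adjusted p under 0.01 gave 148, 34, 348 and 329. Without a filter the A, C and joint counts were 981, 2363 and 1792, with SDs of 0.105, 0.114 and 0.152. With FPKM above 1 in all 31 mice the A, B and joint counts were 265, 43 and 655, and with first loci only the A, C and joint counts were 271, 583 and 519. Fewer loci are tested under these filters, and the cause of the other shifts was not tested. Removing the read-quality set gave 41 and leaving out loci with a gap 37 for db/db against db/m. A pseudocount of 0.1 gave SDs of 0.165 in db/m and 0.18 in db/db mice.

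The replicate numbers did not pair the mice (correlations of same-numbered mice from -0.246 to 0.141). With the replicate block the A and joint counts were 288 and 696, the r of Cldn5 and Flt1 was 0.382 (permutation adjusted p = 0.0538) and that of Tcf7l2 and Prkcd 0.549 (permutation adjusted p = 0.00416).

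With IF mice 1, 7 and 11 left out, the A, C and joint counts were 204, 340 and 395, the IF SD 0.147, the distance of IF minus db/db -0.00118, that of IF minus db/m 0.0126 (permutation adjusted p = 0.163) and the leading axis 8.79%. With the 3 farthest mice of each group left out, the 4 counts were 287, 141, 420 and 475, the SDs 0.118 in db/m and 0.147 in IF mice, the distances 0.00679 for IF minus db/db and 0.0161 for db/db minus db/m (permutation adjusted p = 0.236 and 0.00873), the axis 9.51%, and the median pairwise r of the hippocampal subfield and neurogenesis lists -0.0049 and -0.0341. Without IF mouse 7 and db/db mouse 10 count A was 721. The r of Dbp and Per3 turned positive in these 3 settings (0.103, 0.199 and 0.0596 in the order given) and without IF mouse 7 alone, with a range of -0.223 to 0.047 over single omissions.

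With each mouse left out in turn, the 4 counts ran from 330 to 924, 62 to 104, 899 to 2138 and 747 to 1715 (joint count lowest without IF mouse 11 and highest without mouse 4), and the SDs from 0.132 to 0.14, 0.14 to 0.153 and 0.172 to 0.208. The distances ran from 0.0171 to 0.0418 for IF minus db/db, from 0.00566 to 0.0167 for db/db minus db/m and from 0.0308 to 0.0527 for IF minus db/m. Between 8 and 9 gene pairs passed the threshold, 11 to 13 lists had a median r of at least 0.3, and the axis held 10 to 13.5%. Of 36 named gene calls, 35 were lost with deviations from the median and 29 with squared deviations. The number of mice limits precision, and depth per value is unknown.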
